A study of Mus musculus with 2 samples.

Results

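The genes that carry cells through DNA replication and mitosis were examined in prostate tumours of 2 mice. They were 56 of the 27376 genes in the deposited count table, taken by symbol from a list of 15 genes of the G1-to-S transition, 19 genes of DNA replication and 22 genes of mitosis, and each symbol matched a single row. RNA was sequenced from whole tumour tissue of 1 mouse of the genotype named Bcat_Only and 1 mouse of the genotype named Met_Bcat, both 16 months old. The heading of the Bcat_Only column reads Bcat_ex3Plus_PB_Cre, so a beta-catenin allele and a Cre driver are named there. PB_Cre commonly stands for a Cre under the probasin promoter of prostate epithelium, which the labels do not spell out. The heading of the Met_Bcat column names no allele, and the labels describe neither the MET allele nor whether both mice carried the same beta-catenin allele and driver. A single library stands for each genotype, so the spread between animals is unknown, the genotypes were not tested against each other, and every difference below is between these libraries.

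Entry into the cell cycle is governed by D-type cyclins, which activate the kinases CDK4 and CDK6 to phosphorylate the retinoblastoma protein and so free E2F transcription factors. E2F targets include the MCM helicase, polymerases and nucleotide synthesis enzymes that copy DNA in S phase. Later the B-MYB, MuvB and FOXM1 complexes switch on cyclin B, the mitotic kinases and the kinetochore and spindle genes. The gene of cyclin D1 is a known target of beta-catenin signalling in many epithelia, and transcripts of the replication and mitosis genes are widely used as a measure of proliferation in tumours.

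The libraries held 19301062 reads assigned to genes in Bcat_Only and 20117724 in Met_Bcat. Levels are given as CPM, read counts relative to library sizes scaled by TMM (trimmed mean of M values), and ratios carry a 95% exact interval that covers counting error only. A gene passed the size rule when the whole interval lay at or beyond a 2-fold difference. Ctnnb1, the beta-catenin gene, had 981 CPM in the Bcat_Only tumour against 974 CPM in Met_Bcat, and Met had 169 and 166 CPM, so total reads of these genes did not separate the genotypes. All 10 luminal epithelial markers looked up were detected in both libraries, with summed levels of 3404 CPM in the Bcat_Only tumour against 5761 CPM in Met_Bcat.

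The mitosis genes were lower in the Met_Bcat tumour almost throughout, the replication genes were lower by less, and the G1-to-S genes went both ways. Of the 22 mitosis genes, 20 had a counting interval wholly below 1 and 0 had an interval wholly above it. Of the 19 replication genes the counts were 13 below and 1 above, and of the 15 G1-to-S genes 6 below and 4 above. With libraries scaled by their totals the numbers below 1 were 20, 8 and 5 for mitosis, replication and G1-to-S genes. With scaling to 5 luminal markers they were 22, 18 and 11, though these markers differed in direction. Their log2 ratios ran from −0.258 for Cdh1 to 1.10 for Krt19, and the scaling rests on the middle one, Krt18. Over all 14354 genes that reached a mean of 1 CPM, 36% had an interval wholly below 1 and 37.8% wholly above it with TMM scaling. The share of all genes tested wholly below 1 was 30.4% with library totals and 60.1% with the luminal markers. The median log2 ratio of Met_Bcat to Bcat_Only, computed on CPM plus 0.5, was −0.59 for mitosis genes, −0.30 for replication genes and −0.13 for G1-to-S genes, beside 0.030 for all genes tested. All 3 medians kept a negative sign under each of 4 other scalings, although that of the G1-to-S genes came to −0.000335 when libraries were scaled by their totals.

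The differences were small in size. Among the 56 genes, 1 was past the size rule as higher in Met_Bcat, Rrm2, where 4.42% of all genes tested passed in that direction. As lower, 2 passed, E2f1 and Mki67, where 14.6% of all genes tested did. Of the 56 ratios, 52 lay within 2-fold, which is 92.9% of them, and 75.7% of all genes tested lay within that range. All 56 genes were above the minimum expression, with mean levels from 4.13 to 237 CPM. Among the 11584 genes within those limits, 3.55% passed as higher and 13.2% as lower, and 39.8% and 35.2% had intervals wholly above and below 1. With the rule set at 1.5-fold, Ccnd1, Ccnd2 and Rrm2 passed as higher, 3 genes against a background of 8.12% of all genes tested. As lower, 8 passed (Bub1, Ccna2, Ccnd3, Cenpa, Cenpe, E2f1, Mki67 and Tk1), against a background of 19.7%. At 4-fold 0 of the 56 passed in either direction, beside 1.75% of all genes tested as higher and 7.57% as lower. The middle 50% of mitosis genes spanned only −0.68 to −0.49 on the log2 scale, whereas the middle 50% of all genes tested spanned −0.53 to 0.33.

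**Figure D1:**
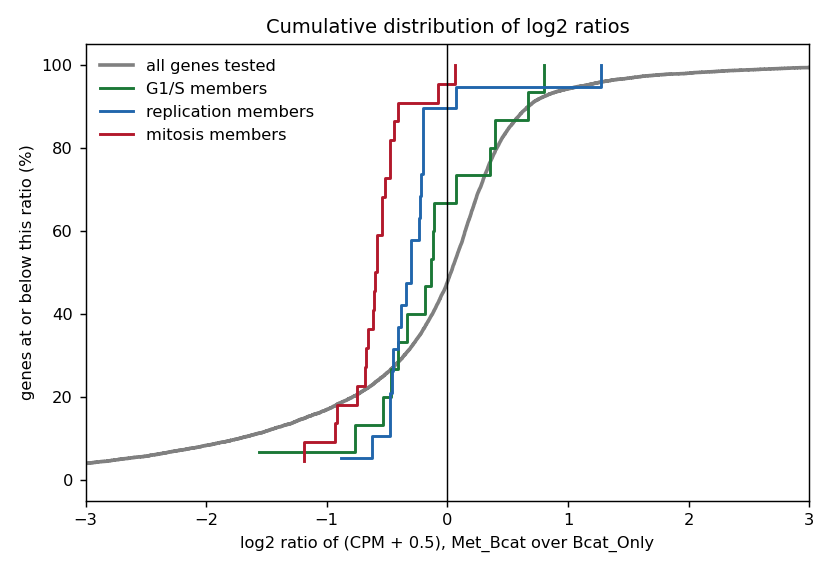
Cumulative distribution of the log2 ratio of CPM plus 0.5, Met_Bcat over Bcat_Only (horizontal axis, log2 units), as the percentage of genes at or below each ratio (vertical axis), for all 14354 genes tested and for the G1/S, replication and mitosis members; genes with more extreme ratios lie beyond the axis ends. The mitosis curve is steep and lies left of 0 for 21 of 22 genes, and the median of all genes tested is 0.030.

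The D-type cyclin genes differed in opposite directions. Ccnd1, which encodes cyclin D1 (ENSMUSG00000070348, mm9 chromosome 7, 152115836 to 152125774), had 3369 reads (183 CPM) in the Bcat_Only tumour against 6133 reads (291 CPM) in Met_Bcat. It was 1.59-fold higher in Met_Bcat (1.53 to 1.66). Ccnd2, for cyclin D2 (ENSMUSG00000000184, chromosome 6, 127075797 to 127101066), had 121 and 212 CPM, 1.75-fold higher (1.66 to 1.84). Ccnd3, for cyclin D3 (ENSMUSG00000034165, chromosome 17, 47642000 to 47736632), had 77.9 and 45.5 CPM, 1.71-fold lower (1.58 to 1.86). None of the cyclin D genes passed the 2-fold size rule, and the 3 directions held under all 4 other scalings.

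A comparison within each library needs no scaling between libraries. Per kilobase of exon, Ccnd1 held 46.1% of the summed D cyclin level in Bcat_Only and 56.9% in Met_Bcat. The share of Ccnd2 was 20.6% and 27.9%, and that of Ccnd3 was 33.4% and 15.1%. Cyclin D3 RNA was thus second in level in Bcat_Only and last in Met_Bcat. The ratio of Ccnd2 to Ccnd3 reads was 2.99-fold greater in Met_Bcat (2.72 to 3.30), while that of Ccnd1 to Ccnd2 was close, at 0.909 of its Bcat_Only value (0.851 to 0.972). These within-library pairs were chosen after the values had been seen.

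The partner kinases followed no common direction. Cdk4, the main D cyclin kinase of many epithelia, had 172 CPM in the Bcat_Only tumour against 219 CPM in Met_Bcat, 1.28-fold higher (1.22 to 1.34). Its relative Cdk6 had 37.5 and 27.0 CPM, 1.39-fold lower (1.24 to 1.55). Under scaling to the luminal markers the log2 ratio of Cdk4 came to 0.010. Cdk2, the kinase of cyclins E and A, had 32.7 and 30.0 CPM, with an interval from 0.819 to 1.03 that spans no difference. The cyclin E genes, which act with Cdk2 at S-phase entry, were scarce. Ccne1 had 104 and 87 reads, a ratio of 0.731 (0.544 to 0.982), and Ccne2 had 117 and 123 reads, a ratio of 0.919 (0.708 to 1.19). The ratios of Cdk2 and Ccne2 turned above 1 when libraries were scaled by their totals.

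Among the E2F genes, E2f1 stood out as lower. E2f1, an activator of S-phase genes (ENSMUSG00000027490, chromosome 2, 154385143 to 154395628), had 183 reads (9.93 CPM) in the Bcat_Only tumour against 64 reads (3.04 CPM) in Met_Bcat. It was 3.27-fold lower in Met_Bcat (2.45 to 4.42), the lowest ratio among the 56 genes, and passed the size rule under each of the scalings tried. The other activators did not share this. E2f2 had 16.9 and 14.9 CPM, a ratio of 0.877 (0.747 to 1.03), and E2f3 had 33.3 and 44.0 CPM, 1.32-fold higher (1.19 to 1.47). The log2 ratio of E2f3 came to 0.059 when libraries were scaled to the luminal markers. Per kilobase of exon, E2f1 made up 19.0% of the summed level of the 5 E2F genes in Bcat_Only and 5.98% in Met_Bcat, and E2f3 made up 41.9% and 57.0%.

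The repressor E2Fs and the pocket proteins, which bind and restrain E2F, had ratios nearer to 1 than E2f1 did. E2f7 had 118 and 90 reads, 1.5-fold lower (1.13 to 2.0), and E2f8 had 232 and 279 reads, a ratio of 1.05 (0.880 to 1.26). Rb1, the retinoblastoma gene, had 48.2 and 38.2 CPM, 1.26-fold lower (1.15 to 1.39). Rbl1, which encodes the related p107, had 28.4 and 25.9 CPM, and its interval from 0.806 to 1.03 spans no difference. As a sum, the 15 G1-to-S genes were 1.24-fold higher in Met_Bcat (1.21 to 1.26) although their median ratio was below 1, since Ccnd1, Ccnd2 and Cdk4 hold most of the reads of the group.

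**Figure D2:**
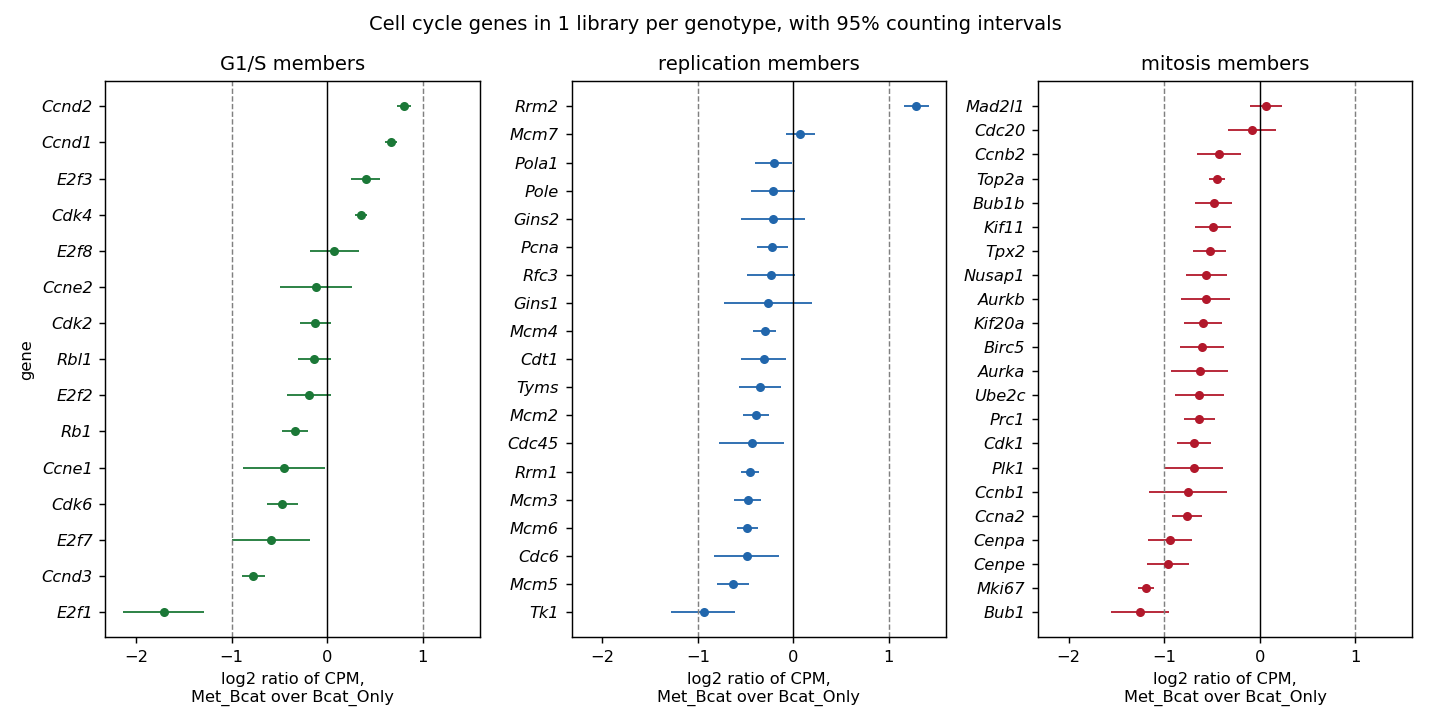
Log2 ratio of CPM, Met_Bcat over Bcat_Only (horizontal axis), for each of the 15 G1/S, 19 replication and 22 mitosis genes, with bars for the 95% counting interval, a solid line at no difference and dashed lines at 2-fold. Rrm2 lies right of the 2-fold line, E2f1, Mki67 and Bub1 have points left of it, and the mitosis genes other than Mad2l1 lie below 0.

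The replicative helicase genes were modestly lower as a set. Mcm2 to Mcm7 encode the ring that unwinds DNA at the fork, and 5 of these 6 genes had intervals wholly below 1. Mcm6 had 88.1 CPM in the Bcat_Only tumour against 63.1 CPM in Met_Bcat, 1.40-fold lower (1.30 to 1.5). Mcm5 had 37.2 and 24.0 CPM, 1.55-fold lower (1.38 to 1.75). Mcm3 was 1.39-fold lower, Mcm2 1.31-fold and Mcm4 1.23-fold. Mcm7 was the exception, with 35.8 and 37.5 CPM and a ratio of 1.05 (0.945 to 1.17). Of the read-length stretches in Mcm7 transcripts, 22.8% also occur in transcripts of other genes, among them the one named Gm5487, so its reads are less certain. The summed level of the 6 genes was 323 CPM in the Bcat_Only tumour against 249 CPM in Met_Bcat, 1.30-fold lower (1.25 to 1.35).

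The 6 subunits assemble in equal numbers, and their RNA levels were of the same order in each library. Per kilobase of exon the highest, Mcm6, was 2.50 times the lowest, Mcm7, in Bcat_Only. In Met_Bcat the highest was again Mcm6 and was 2.11 times the lowest, which was there Mcm5. The coefficient of variation over the 6 genes was 30.5% in Bcat_Only and 26.9% in Met_Bcat.

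The genes that load and start the helicase were also lower by their ratios. Cdc6 and Cdt1, which load the MCM ring on origins, had ratios of 0.712 (0.563 to 0.898) and 0.805 (0.684 to 0.947). Cdc45, a part of the active helicase, had 162 and 137 reads, a ratio of 0.739 (0.584 to 0.934). Gins1 and Gins2, of the same complex, had 83 and 79 reads and 148 and 146 reads, with intervals that span no difference. Of the read-length stretches of Gins2, 65.4% also occur, on the opposite strand, in transcripts of Gse1, which itself had 960 and 2323 reads, so the level of Gins2 is uncertain.

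The fork genes were nearly level with each other. Pcna, the sliding clamp, had 34.5 and 29.6 CPM, a ratio of 0.859 (0.768 to 0.961). Rfc3, of the clamp loader, had a ratio of 0.851 (0.713 to 1.02). The polymerase genes Pola1 and Pole had ratios of 0.866 (0.757 to 0.992) and 0.863 (0.737 to 1.01). All 4 ratios lay between 0.851 and 0.866. Under total counts the log2 ratios of these genes moved up by 0.13, as those of all genes did, and they stayed below 0.

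The nucleotide synthesis genes included the only replication gene with an interval wholly above 1 under TMM scaling. Rrm2, the regulated small subunit of ribonucleotide reductase (ENSMUSG00000020649, chromosome 12, 25393106 to 25399011), had 624 reads (33.9 CPM) in the Bcat_Only tumour against 1743 reads (82.7 CPM) in Met_Bcat. It was 2.44-fold higher in Met_Bcat (2.23 to 2.68), the highest ratio among the 56 genes. Rrm1, the large subunit of the same enzyme, had 103 and 75.5 CPM, 1.37-fold lower (1.28 to 1.46). Per kilobase of exon, Rrm2 stood at 0.472 of Rrm1 in Bcat_Only and at 1.58 of Rrm1 in Met_Bcat, a 3.34-fold change of the ratio (2.98 to 3.75) that no scaling affects. This pair was also chosen after the values were seen. Under scaling to the luminal markers Rrm2 was no longer past the size rule.

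The other enzymes that feed DNA synthesis with nucleotides did not follow Rrm2. Tk1, thymidine kinase, had 203 reads (11 CPM) in the Bcat_Only tumour against 121 reads (5.74 CPM) in Met_Bcat, 1.92-fold lower (1.52 to 2.42). Tyms, thymidylate synthase, had 20.1 and 15.8 CPM, 1.27-fold lower (1.10 to 1.48). Through Rrm2 the summed level of the 4 genes was 1.07-fold higher in Met_Bcat (1.02 to 1.12) while their median log2 ratio was −0.40.

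Promoters of the replication genes that carry letters of the E2F binding motif are shown here for the helicase genes Mcm6 and Mcm3, beside that of Rrm2, the replication gene with the highest ratio. The sequences are those of RefSeq on GRCm38.p6, from 250 bases before to 50 after the transcript start, 5′ to 3′ on the strand of the gene, with E2F-type and CCAAT letters in capitals. The regions are chr1:128359656-128359955 for Mcm6, chr1:20820263-20820562 for Mcm3, both on the minus strand, and chr12:24708004-24708303 for Rrm2 on the plus strand.
Mcm6: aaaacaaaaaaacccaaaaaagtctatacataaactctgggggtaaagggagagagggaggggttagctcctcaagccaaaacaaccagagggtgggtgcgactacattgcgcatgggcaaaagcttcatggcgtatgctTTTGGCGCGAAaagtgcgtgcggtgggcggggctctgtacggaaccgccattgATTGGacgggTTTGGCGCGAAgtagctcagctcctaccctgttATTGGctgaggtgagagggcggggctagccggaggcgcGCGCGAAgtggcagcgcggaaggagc
Mcm3: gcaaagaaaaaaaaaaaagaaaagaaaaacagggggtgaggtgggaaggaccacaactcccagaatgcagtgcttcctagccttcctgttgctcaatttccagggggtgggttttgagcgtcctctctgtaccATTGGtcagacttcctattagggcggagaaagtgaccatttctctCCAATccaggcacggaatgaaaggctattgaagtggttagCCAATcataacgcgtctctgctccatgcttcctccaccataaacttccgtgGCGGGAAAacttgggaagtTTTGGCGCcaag
Rrm2: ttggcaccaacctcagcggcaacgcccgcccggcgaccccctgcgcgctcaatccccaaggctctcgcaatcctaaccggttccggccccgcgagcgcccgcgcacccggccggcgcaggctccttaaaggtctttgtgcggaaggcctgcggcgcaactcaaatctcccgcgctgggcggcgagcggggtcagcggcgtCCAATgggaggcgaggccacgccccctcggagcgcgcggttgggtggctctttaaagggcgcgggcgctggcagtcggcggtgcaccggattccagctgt
The Mcm6 window held 5 E2F-type matches, which overlap in part, and the Mcm3 window 2, at 20 and 39 bases after the start counted as base 1. The Rrm2 window held 0 matches of these letters and a single CCAAT, which starts at −50. E2F-type letters were also absent from the windows of Mcm2, Cdc45, Pcna, Tyms and Tk1, whose ratios were below 1.

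The cyclins and kinases of mitosis had 7 of 7 intervals wholly below 1. Ccna2, for cyclin A2 of S and G2 phase, had 847 reads (46.0 CPM) in the Bcat_Only tumour against 571 reads (27.1 CPM) in Met_Bcat, 1.70-fold lower (1.52 to 1.89). Cdk1, the kinase that drives entry into mitosis, had 33.8 and 21.0 CPM, 1.61-fold lower (1.42 to 1.82). Its cyclin genes Ccnb1 and Ccnb2 were 1.68-fold (1.27 to 2.22) and 1.34-fold lower (1.14 to 1.58). Of the read-length stretches of Ccnb1, 23.2% also occur in transcripts of other genes, Ccnb1-ps among them. The kinase genes of spindle assembly and chromosome alignment were close to Cdk1 in ratio. Plk1 was 1.62-fold lower (1.30 to 2.01), Aurka 1.55-fold (1.26 to 1.90) and Aurkb 1.48-fold (1.24 to 1.76). The summed level of these 7 genes was 145 CPM in the Bcat_Only tumour against 91.9 CPM in Met_Bcat.

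The spindle checkpoint and its target, the anaphase-promoting complex, varied more in ratio than the mitotic kinases. Bub1, a checkpoint kinase of the kinetochore (ENSMUSG00000027379, chromosome 2, 127626858 to 127657601), had 285 reads (15.5 CPM) in the Bcat_Only tumour against 137 reads (6.50 CPM) in Met_Bcat. It was 2.38-fold lower (1.93 to 2.94), just short of the size rule. Bub1b, for its relative BUBR1, had 26.1 and 18.6 CPM, 1.40-fold lower (1.22 to 1.6). Mad2l1, for the checkpoint protein MAD2, was level with 27.7 and 29.0 CPM, a ratio of 1.05 (0.930 to 1.18). Cdc20, the activator that MAD2 and BUBR1 restrain, had 14.1 and 13.3 CPM, a ratio of 0.945 (0.795 to 1.12) that turned above 1 under total counts. Ube2c, the ubiquitin-conjugating enzyme of the complex, had 16.2 and 10.5 CPM, 1.55-fold lower (1.30 to 1.85). The ratio of Mad2l1 to Bub1 reads was 2.49-fold greater in Met_Bcat (1.96 to 3.18). This pair joins the highest and the lowest ratio of the mitosis genes and was chosen after the values were seen, so a large change was bound to appear.

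The chromosome, kinetochore and spindle genes had 10 of 10 intervals wholly below 1. Mki67, for the proliferation antigen Ki-67 that coats mitotic chromosomes (ENSMUSG00000031004, chromosome 7, 142881471 to 142908062), had 3387 reads (184 CPM) in the Bcat_Only tumour against 1695 reads (80.4 CPM) in Met_Bcat. It was 2.29-fold lower (2.16 to 2.42), and it missed the size rule when libraries were scaled by their totals. Top2a, for the topoisomerase that untangles replicated DNA, had 135 and 99.5 CPM, 1.36-fold lower (1.28 to 1.44). The proliferation markers Mki67 and Top2a therefore differed by unequal amounts. The ratio of Mki67 to Top2a reads in Met_Bcat was 0.595 of that in Bcat_Only (0.547 to 0.646), a pair likewise chosen after the values were seen.

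Kinetochore genes came next in size. Cenpa, for the histone that marks centromeres, had 23.0 and 12.0 CPM, 1.92-fold lower (1.64 to 2.25). Cenpe, for a kinesin that moves chromosomes to the spindle equator, had 25.1 and 12.9 CPM, 1.95-fold lower (1.67 to 2.27). The remaining genes lay in a narrow band. Birc5, for survivin of the Aurora B complex, was 1.52-fold lower, and Kif11, the motor that separates spindle poles, 1.40-fold. The spindle assembly genes Tpx2 and Nusap1 were 1.44-fold and 1.47-fold lower. Prc1 and Kif20a, which build the midzone for cytokinesis, were 1.55-fold and 1.51-fold lower. Cdc23 lies on the opposite strand over part of Kif20a, and 25.2% of the read-length stretches of Kif20a are shared with other genes.

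Promoters of the mitosis genes carried other letters, those of the cell cycle homology region (CHR), which MuvB complexes bind, with the CCAAT box of NF-Y nearby. The windows of Mki67 and Bub1, the mitosis genes lowest in ratio, and of Cdk1 are shown with the same conventions and with CHR letters in capitals too. They lie at chr7:135716330-135716629, chr2:127831810-127832109 and chr10:69352863-69353162 on GRCm38.p6, all on the minus strand.
Mki67: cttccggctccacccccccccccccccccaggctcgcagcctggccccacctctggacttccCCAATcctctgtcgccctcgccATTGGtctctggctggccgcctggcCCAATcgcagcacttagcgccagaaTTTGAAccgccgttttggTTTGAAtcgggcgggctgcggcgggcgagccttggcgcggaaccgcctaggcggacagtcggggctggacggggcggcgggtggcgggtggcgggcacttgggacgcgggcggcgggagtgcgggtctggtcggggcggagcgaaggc
Bub1: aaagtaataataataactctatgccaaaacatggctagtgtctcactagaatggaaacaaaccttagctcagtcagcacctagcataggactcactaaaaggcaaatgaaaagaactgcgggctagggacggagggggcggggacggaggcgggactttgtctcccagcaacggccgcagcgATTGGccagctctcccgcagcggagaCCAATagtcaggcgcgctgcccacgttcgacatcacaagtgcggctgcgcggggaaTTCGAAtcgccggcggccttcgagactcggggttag
Cdk1: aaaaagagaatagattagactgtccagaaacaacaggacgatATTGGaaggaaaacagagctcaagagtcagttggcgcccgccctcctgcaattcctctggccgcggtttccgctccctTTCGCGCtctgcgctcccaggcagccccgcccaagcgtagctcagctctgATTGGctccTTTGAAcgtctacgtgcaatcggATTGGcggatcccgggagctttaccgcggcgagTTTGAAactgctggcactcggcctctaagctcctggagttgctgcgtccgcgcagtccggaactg
In Mki67 the CHR letters TTTGAA start at −116 and −98, and CCAAT letters or their complement start at −188, −166 and −141. Bub1 has TTCGAA at 15 after the start, and its CCAAT letters at −68 and −42. Cdk1 has TTTGAA at −71 and −15, 3 matches of CCAAT and a single E2F-type match at −130.

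The motif letters were unevenly spread over the classes. Any of 4 runs of letters counted as E2F-type: GCGGGAA as the first, then TTCGCGC, with TTTGGCGC as the third and TTTCCCGC as the last, whose complement contains the first. The CHR search took TTTGAA or else the palindrome TTCGAA, and all letters were read on both strands. Promoters of 44 of the 56 genes were in the table. E2F-type letters were present for 9 of 15 replication genes (60.0%), 5 of 11 G1-to-S genes (45.5%) and 1 of 18 mitosis genes (5.56%), and for 7.33% of all 27025 genes with a promoter. CHR and CCAAT letters together were present for 13 of 18 mitosis genes (72.2%), 4 of 15 replication genes (26.7%) and 3 of 11 G1-to-S genes (27.3%), and for 8.61% of all genes. CHR letters, with or without CCAAT, occurred for 21.7% of all genes, and CCAAT for 41.1%. A match is a description of the letters, and binding was not measured. Among the mitosis genes the windows with 0 matches of any motif were those of Mad2l1, whose interval spanned 1, and of Birc5 and Nusap1, which were 1.52-fold and 1.47-fold lower in Met_Bcat. Cdc20, whose interval also spanned 1, had both CHR and CCAAT letters. A link between motif letters and ratios was not tested.

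**Figure D3:**
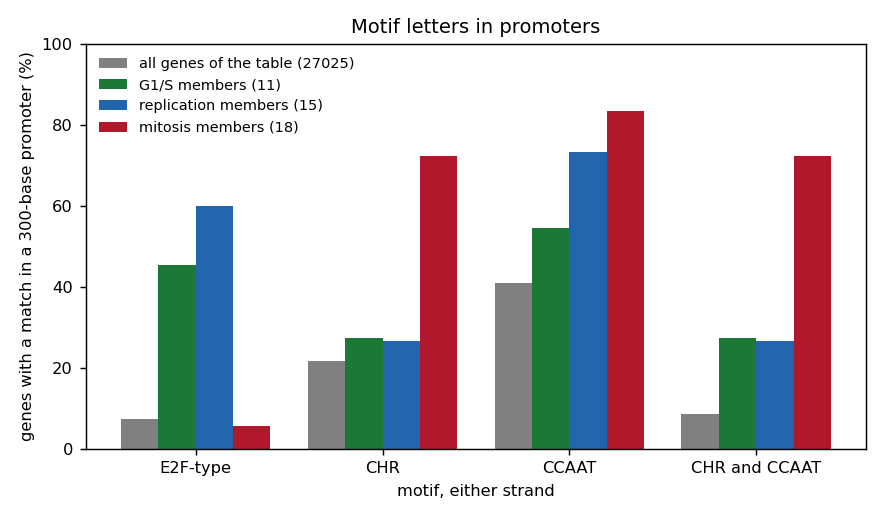
Share of genes (vertical axis, percent) with E2F-type, CHR, CCAAT or both CHR and CCAAT letters in a 300-base promoter window on either strand (horizontal axis), for all 27025 genes of the promoter table and for the 11 G1/S, 15 replication and 18 mitosis members found there. E2F-type letters peak in replication genes at 60.0% and CHR with CCAAT in mitosis genes at 72.2%.

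Reads of the classes were also set against each other within each library. The same reads enter as above, so these ratios restate the contrast without scaling and add no separate evidence. Shares of all reads depend on the library total, whereas ratios of reads between classes need no scaling. All 56 genes together held 0.210% of reads in Bcat_Only (0.208% to 0.212%) and 0.211% in Met_Bcat (0.209% to 0.213%). The mitosis genes held 0.0746% and 0.0512%, the replication genes 0.0600% and 0.0569%, and the G1-to-S genes 0.0756% and 0.103%. For each read of a replication gene there were 1.24 reads of mitosis genes in Bcat_Only and 0.900 in Met_Bcat, which is 0.724 of the former (0.699 to 0.751). For each read of a G1-to-S gene there were 0.987 and 0.50 reads of mitosis genes, which is 0.506 of the former (0.490 to 0.523). Ccnd1, Ccnd2 and Cdk4 weigh on this last comparison, and without them the value in Met_Bcat was 0.772 of that in Bcat_Only (0.738 to 0.808). Without the same 3 genes, reads of replication genes per read of G1-to-S genes were 1.07-fold higher in Met_Bcat (1.02 to 1.12), against 0.699 of the Bcat_Only value with them. These 3 genes and Rrm2 were chosen after their values were seen. Without Rrm2 the reads of mitosis genes per read of replication genes in Met_Bcat were 0.808 of those in Bcat_Only (0.779 to 0.839).

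Levels of the 56 genes kept much the same order in both tumours. The correlation of log2 CPM plus 0.5 between the libraries was 0.95 across these genes and 0.83 across all genes tested, and genes are not independent replicates. Per kilobase of exon the most abundant in Bcat_Only were Cdk4 at 52.8 CPM per kilobase and Ccnd1 at 47.7. In Met_Bcat they were Ccnd1 at 75.9 and Cdk4 at 67.5. E2f7 was the scarcest in both, at 0.711 and 0.474 CPM per kilobase. The order of Ccnd1 and Cdk4 is uncertain beyond counting error, since 21.5% of the read-length stretches of Ccnd1 and 17.0% of those of Cdk4 are shared with transcripts of other genes.

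**Figure D4:**
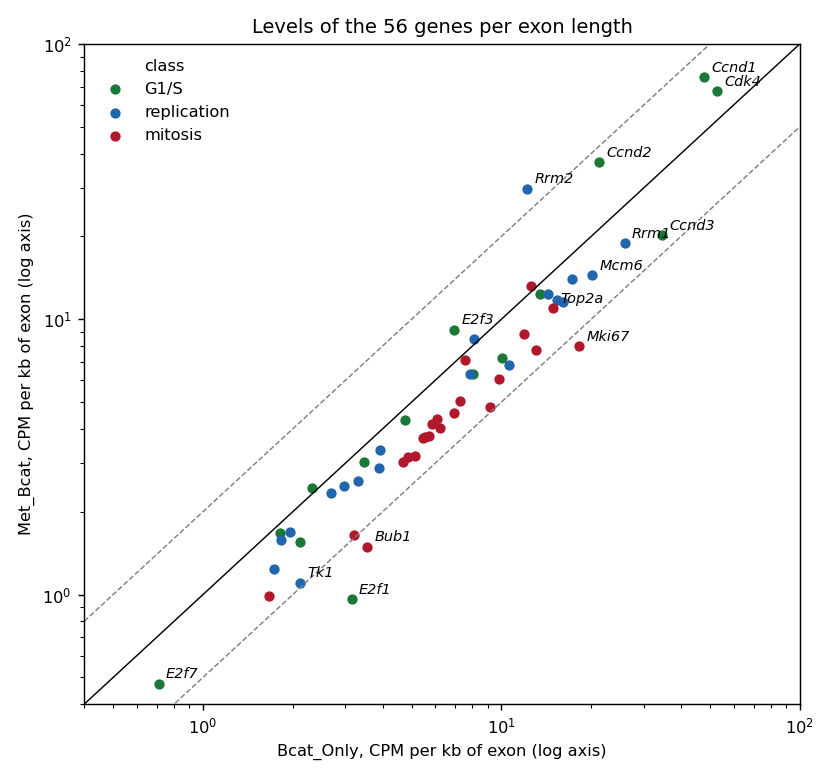
Level of each of the 56 genes in CPM per kilobase of exon in Bcat_Only (horizontal log axis) and Met_Bcat (vertical log axis), coloured by class, with lines at no difference (solid) and at 2-fold (dashed). Most points lie between the solid line and the lower dashed line, Rrm2 lies above the upper dashed line at 12.2 and 29.8, and E2f1 lies below the lower dashed line at 3.15 and 0.962.

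Of the same pathways, genes outside the 56 were also lower by more in mitosis than in replication. They were read from the same libraries, in lists chosen with earlier results of these data known, so they are no independent check. Of 43 other mitosis genes tested, 35 had intervals wholly below 1 and 3 wholly above it, with a median log2 ratio of −0.54. Of all genes tested, 36% lay below 1 and 37.8% above it, and 14.6% passed the size rule as lower. A single gene of this mitosis list passed the size rule, Nuf2 of the kinetochore, with 242 and 109 reads, 2.54-fold lower (2.02 to 3.21). Cenpm, of the centromere complex, was 2.63-fold lower (1.82 to 3.86). Cep55, for a midbody protein, was 2.28-fold lower (1.83 to 2.85), and Aspm, for a spindle pole protein, 2.11-fold lower. Of 42 other replication genes, 22 had intervals below 1 and 4 above, with a median of −0.22, and 0 passed the size rule. Gmnn, for the licensing inhibitor geminin, was 1.98-fold lower (1.5 to 2.63), and Timeless, of the fork protection complex, was 1.76-fold lower (1.45 to 2.15). The chromatin assembly and maintenance genes Chaf1b and Uhrf1 were 1.59-fold and 1.53-fold lower.

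Regulators upstream went both ways. Of 22 other E2F, pocket protein, MuvB and G2/M regulator genes, 9 had intervals above 1 and 6 below, with a median log2 ratio of 0.090 that depends on scaling. All genes tested also went both ways, with 37.8% above 1 and 36% below. Past the size rule as higher were Mycn, of the MYC family, with 13 and 86 reads, 5.78-fold higher (3.21 to 11.3), and Wee1, for the kinase that holds CDK1 inactive, with 27.4 and 77.1 CPM, 2.82-fold higher (2.55 to 3.12). Tfdp2, an E2F partner, was 1.48-fold higher (1.35 to 1.61). Ccnf, for cyclin F, was 1.59-fold lower (1.30 to 1.94). Of the activators of mitosis genes named above, Foxm1 was 1.37-fold lower (1.18 to 1.58). Mybl2, for B-MYB, had 100 and 68 reads and was 1.68-fold lower (1.22 to 2.32). The MuvB genes Lin9, Lin37 and Lin54 had intervals that span no difference, and Lin52 was 1.32-fold higher (1.02 to 1.72).

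The CDK inhibitor genes also divided. Of 7 found, 6 were tested and 2 passed the size rule as lower, where 14.6% of all genes tested did. These were Cdkn1c, for p57, with 15.1 and 4.60 CPM, 3.29-fold lower (2.60 to 4.19), and Cdkn2c, for the CDK4 and CDK6 inhibitor p18, with 20.6 and 7.92 CPM, 2.60-fold lower (2.16 to 3.14). Cdkn1a, for the p53-induced inhibitor p21, had 72.4 and 118 CPM, 1.63-fold higher (1.52 to 1.74). Cdkn2a, from which p16 and ARF are made, had 65 and 145 reads, 1.95-fold higher (1.45 to 2.65).

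Fibroblast, smooth muscle, neutrophil, macrophage and B and plasma cell sums were lower in Met_Bcat by larger ratios than the mitosis sum in the same libraries. Tissue was taken whole, so fewer cells of a type and less RNA per cell cannot be told apart, and any dividing cell type adds to the levels above. All 6 fibroblast markers were past the size rule as lower, with summed levels of 22826 CPM in the Bcat_Only tumour against 826 CPM in Met_Bcat. Among immune lists, all 5 neutrophil markers were lower, summing to 3687 and 113 CPM, with Elane at 0 reads in Met_Bcat. All 4 macrophage markers were lower, at 805 and 153 CPM, and so were all 4 B and plasma cell markers found, at 452 and 16.1 CPM. Ptprc, present on all leukocytes, had 181 and 25.6 CPM.

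The remaining lists went both ways. Of 5 T and NK cell markers 1 passed as lower, Cd4, with sums of 35.0 and 15.9 CPM. All 4 smooth muscle markers and 3 of 4 endothelial markers passed as lower, with sums of 473 and 32.7 CPM and of 376 and 194 CPM. The 5 precursor markers summed to 35.7 and 76.2 CPM, of which Kit, also found on other cell types, made up 28.4 and 75.3 CPM. The myeloid precursor genes Cebpe and Gfi1 had 69 and 55 reads in the Bcat_Only tumour against 3 and 15 in Met_Bcat. The erythroid genes Gata1 and Klf1 had 4 and 6 reads against 0 and 1, and both intervals span no difference. The germinal centre list had 109.6 and 100.3 CPM. Epithelial sums were higher in Met_Bcat, at 3404 and 5761 CPM for 10 luminal markers, 4 of which passed as higher and 1 as lower, and at 360 and 1170 CPM for 4 basal markers, 3 higher and 1 lower. The part of cell makeup in the lower mitosis and replication levels was not tested.

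**Figure D5:**
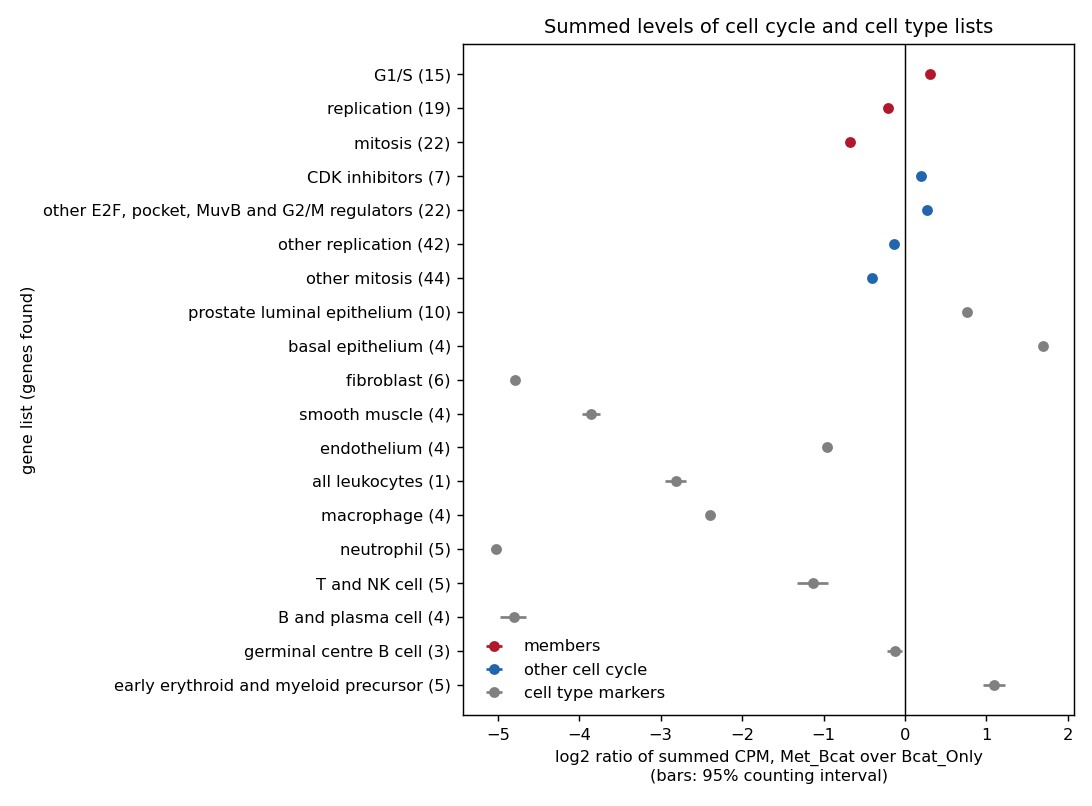
Log2 ratio of summed CPM, Met_Bcat over Bcat_Only (horizontal axis), for the classes of cell cycle genes, other cell cycle lists and cell type marker lists (vertical axis, with the number of genes found), with bars for the 95% counting interval where wider than the point. The cell cycle lists lie within 1 log2 unit of 0, and the fibroblast, neutrophil and B and plasma cell sums lie below −4.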

How the data were processed

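Total RNA of whole tumour tissue, 200 ng per library, was made into stranded mRNA libraries with 10 PCR cycles and read as single ends of 51 bases, per the labels' protocols. The deposited table holds raw read counts per gene on mm9. TopHat2 version 2, HTSeq and edgeR are named in the submitters' processing notes, with no settings: the strand option of the counting is not given in the sources used here. Exon lengths come from a column of the same deposited table and gave levels per kilobase. Columns were matched to samples by the sample number in their headings.

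TMM factors (edgeR 4.0.16, R 4.3.3) were 0.955 for Bcat_Only and 1.05 for Met_Bcat. Intervals are 95% Clopper-Pearson intervals conditional on summed reads (scipy 1.17.1). Reads copied by PCR without molecular identifiers are not independent, so intervals cover counting error only. Genes needed a mean of 1 CPM, and medians used a pseudocount of 0.5 CPM, which understates differences of low genes. The intervals and the size rule were tried on simulated Poisson counts. These hold no PCR copies and no spread between animals, so they cannot show how the calls bear up under either. Read-length stretches shared between genes were counted in GENCODE M21 transcripts. Overlapping genes on opposite strands, which touch 21 of the 56, cannot be told apart without the strand setting.

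All 56 genes are named. Up to 4 genes of each other cell cycle list are named by rule, those whose interval end nearest to 1 lies farthest from it. Foxm1, Mybl2 and the MuvB genes are named besides, and other genes singled out were chosen after their values were seen. The members and lists were chosen with earlier results of these data known. Alternatives were library totals, DESeq2 1.42.0 size factors, upper quartile and luminal marker scaling, other minimum levels, pseudocounts and size rules.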

Additional observations from a re-analysis of the deposited data

How the results depend on the processing

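Medians kept their sign under every alternative run. Scaling to 5 luminal markers (Krt8, Krt18, Epcam, Cdh1, Krt19) took the median of their ratios, that of Krt18, and lowers every log2 ratio by 0.344. With TMM the 5 markers disagreed, at −0.258 for Cdh1, −0.229 for Epcam, 0.344 for Krt18, 0.442 for Krt8 and 1.10 for Krt19. Under this scaling the medians were −0.783 for all 56 genes, −0.470 for G1-to-S, −0.639 for replication and −0.922 for mitosis genes. That of all genes tested was −0.307. Past the size rule were 0 of the 56 as higher and 6 as lower (Bub1, Ccnd3, Cenpa, Cenpe, E2f1 and Mki67), beside 3.01% and 18.9% of all genes tested. With total counts, which raise every log2 ratio by 0.13, the median of the 56 genes was −0.313, beside 0.16 for all genes tested. There 1 gene was lower, E2f1, beside 13.3% of all genes tested. The number lower was also 1 with a minimum mean of 10 CPM, where E2f1 falls below the minimum. At 1.5-fold 3 genes were higher and 8 lower, and at 4-fold 0 and 0. DESeq2 size factors and the upper quartile left the numbers past the size rule at 1 and 2. Of the 56 genes, 39 had an interval wholly below 1 with TMM, 36 with the upper quartile, 33 with total counts and 51 with luminal scaling. Over all genes tested the shares were 36.0%, 32.8%, 30.4% and 60.1% in the same order. Of all genes past the size rule, 76.8% were lower with TMM, 71.1% with total counts and 86.3% with luminal scaling. The ratios of Mcm7, E2f8 and Mad2l1 turned below 1 under luminal scaling, and those of Ccne2, Cdk2 and Cdc20 above 1 under total counts. No replicate could be left out, since each genotype has 1 library. No paired analysis was possible because each genotype has 1 library. Depth limits genes with about 100 reads: for Gins1, with a ratio of 0.832 (0.604 to 1.15), a difference of this size was not detectable.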
